A study of Mus musculus with 21 samples.

Results

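The genes described here encode the nuclear-coded subunits of oxidative phosphorylation, the process in which mitochondria pass electrons from nutrients to oxygen and use the released energy to make ATP. They were taken by symbol, as every gene whose name starts with Ndufa, Ndufb, Ndufc, Ndufs, Ndufv, Sdh, Uqcr, Cox4, Cox5, Cox6, Cox7, Cox8 or Atp5, which brings in some assembly factors along with the subunits. The rule gave 95 genes (121 probes) of 18217 genes named on the array, and each gene is represented by its brightest probe. Of the 95 genes, 92 had a signal clearly over background in each of the 3 arrays of some cell fraction and were tested. The other 3, Cox7b2, Cox8b and Cox8c, are tissue-restricted isoforms that reached this mark on at most 1 array of any fraction.

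The arrays come from C57BL/6 mouse bone marrow sorted into 7 fractions with 3 arrays each. The labels define KLS cells, which hold the stem and multipotent progenitors, as lin-, ckit+ and sca1+. On the erythroid path PreMegE is labelled CD150+, CFUe CD150- and Ter119 CD71+ Ter119+. On the myeloid path PreGM is labelled CD150-, GMP CD150- with FCGrI/II, and Mac1Gr1 Mac1+ Gr1+. No treatment or engineered allele is given for any fraction, and whether the 3 arrays of a fraction came from separate animals is not given in the sources used here. The p-values therefore measure the spread between these samples, which may be technical.

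Several labels and arrays need care before the results. CFUe and PreGM carry the same string of surface markers in the labels, and all progenitors are labelled sca1+, whereas Ly6a, the Sca1 gene, lay at 2.38 to 2.70 in KLS and at -6.83 to -4.48 in CFUe. By expression the CFUe arrays were erythroid, with all 9 erythroid markers above background and a median of 2.89 to 3.06, against -2.17 to -1.41 in PreGM. The Ter119 arrays also carried granulocytic transcripts (median of 12 markers 7.58 to 7.74, against 8.75 to 8.93 in Mac1Gr1 and -3.36 to -0.76 in CFUe) and B cell transcripts (median of 6 markers 3.29 to 3.83), with none of either list at background. The Mac1Gr1 arrays carried B cell transcripts too (median 0.85 to 1.63, against -3.82 to -3.28 in GMP), with 5 of the 6 markers above background on all 3 arrays. The KLS arrays carried macrophage transcripts (median of 6 markers 1.1 to 2.37). So did the Mac1Gr1 arrays (0.60 to 0.98, against -2.63 to -2.44 in GMP). In the Ter119 arrays all 6 macrophage markers were above background too (median -0.53 to -0.16, against -6.43 to -5.03 in CFUe). The part of these cells in the results on Ter119, Mac1Gr1 and KLS was not tested. Y-linked signal marked the KLS, PreMegE and Ter119 arrays and Xist the GMP and Mac1Gr1 arrays, while CFUe and PreGM held 1 array with the former and 2 with the latter.

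Complex I, NADH dehydrogenase, and complex II, succinate dehydrogenase, feed electrons into the respiratory chain, and complex II is also an enzyme of the tricarboxylic acid cycle. Complex III hands the electrons to cytochrome c, complex IV, cytochrome c oxidase, hands them to oxygen, and complex V, ATP synthase, lets protons flow back to make ATP. Assembly factors help to build the complexes and do not stay in them. Developing red cells need mitochondria for heme synthesis and lose them before they are mature, while neutrophils are known for living largely from glycolysis. The genes tested comprise 37 complex I subunits, 7 complex I assembly factors, 4 complex II subunits, 4 complex II assembly factors, 8 complex III subunits, 10 widely used complex IV subunits, 17 complex V subunits, 4 tissue-restricted complex IV isoforms, and Cox7a2l, which joins complexes III and IV into supercomplexes. Groups follow the symbols, so Ndufa4, now known as a partner of complex IV, is counted with complex I.

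The promoters of these genes were read for motifs of known regulators of mitochondrial genes. RefSeq promoters (GRCm38.p6) were at hand for 79 of the 95 genes, and the 250 bases before each start site were searched on both strands. The motif of NRF1, a regulator of nuclear genes for mitochondria, was in 14 of them (17.7%), against 4.23% of 27025 genes. The ETS motif CCGGAAG, which GABPA can bind, was in 15 (19%), against 7.83%. The TATA motif TATAAA was in 7 (8.86%), against 14.3%. The YY1 motif and the GATA motif AGATAAG were in 0 of the 79, and in 0.248% and 3.17% of all genes. With so low a share among all genes, the absence of a YY1 match in 79 genes says little. Bases after the start site were not searched. Matches of different motifs were allowed to overlap. The promoters of these genes were also richer in GC, with a median of 57.2% against 52.4%. Sdhd, Cox6a1 and Atp5h, shown first, are the 3 genes with both an NRF1 and an ETS match. Ndufaf4 and Atp5g2, which have an NRF1 match, follow because the results below turn on them. Capitals mark the matches on either strand, which are a description of the letters and not of binding. The genes set beside them were all genes with a promoter entry, not those of like brightness. Any link between the motifs and the changes below was not tested.
Sdhd, chr9:50603874-50603943, minus strand: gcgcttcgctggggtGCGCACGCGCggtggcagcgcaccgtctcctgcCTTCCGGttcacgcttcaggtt
Cox6a1, chr5:115348959-115349135, minus strand: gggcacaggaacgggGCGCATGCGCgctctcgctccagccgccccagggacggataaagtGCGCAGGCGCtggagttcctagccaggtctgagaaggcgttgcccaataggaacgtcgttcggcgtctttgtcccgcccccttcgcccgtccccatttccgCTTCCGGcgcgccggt
Atp5h, chr11:115419936-115420075, minus strand: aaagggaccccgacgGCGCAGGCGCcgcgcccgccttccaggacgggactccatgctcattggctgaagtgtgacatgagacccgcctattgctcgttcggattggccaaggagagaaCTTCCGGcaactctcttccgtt
Ndufaf4, chr4:24897955-24897994, plus strand: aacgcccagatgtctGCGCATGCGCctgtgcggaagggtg
Atp5g2, chr15:102671065-102671104, minus strand: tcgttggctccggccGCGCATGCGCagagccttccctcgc

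Levels below are log2 intensities relative to the 75th percentile of the same array, so that 0 equals that percentile. A change is a difference between the mean levels of 2 fractions, tested with limma over 29533 probes and called at a Benjamini-Hochberg adjusted p under 0.05. Equal amounts of RNA were labelled, so fewer cells of a type and less RNA per cell cannot be told apart. The genes were bright: 86 of the 92 had a mean level above the 75th percentile of the probes tested. All 92 differed among the 7 fractions, as did 94.7% of all probes tested (limma F-test).

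Most of the genes were at their highest in CFUe, the committed erythroid progenitor. The highest fraction mean lay there for 82 of 92 genes (89.1%), against 24.9% of all probes tested. The heat map of fraction means shows this in every complex. The exceptions were Ndufa3, Ndufa13, Ndufb7 and Ndufv3, which were highest in Mac1Gr1, Ndufb11 and Cox7a2l in PreGM, Ndufaf6 in PreMegE, and the isoforms Cox4i2, Cox6a2 and Cox7a1 in Ter119. Of these, Cox4i2 entered the test only through its Ter119 arrays. The lowest mean lay in Ter119 for 35 genes, in Mac1Gr1 for 31 and in KLS for 23. With quantile scaling 68 genes were highest in CFUe, whereas with arrays scaled to the spiked-in RNAs 88 genes (95.7%) and 58.4% of all probes were highest in GMP. The spike-in signal of the GMP arrays, as log2 deviation from the mean over all arrays, was -0.91, -0.45 and -0.18. On the arrays of the other fractions it lay between -0.28 and 0.40. Its part in the results with spike-in scaling was not tested.

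**Figure D1:**
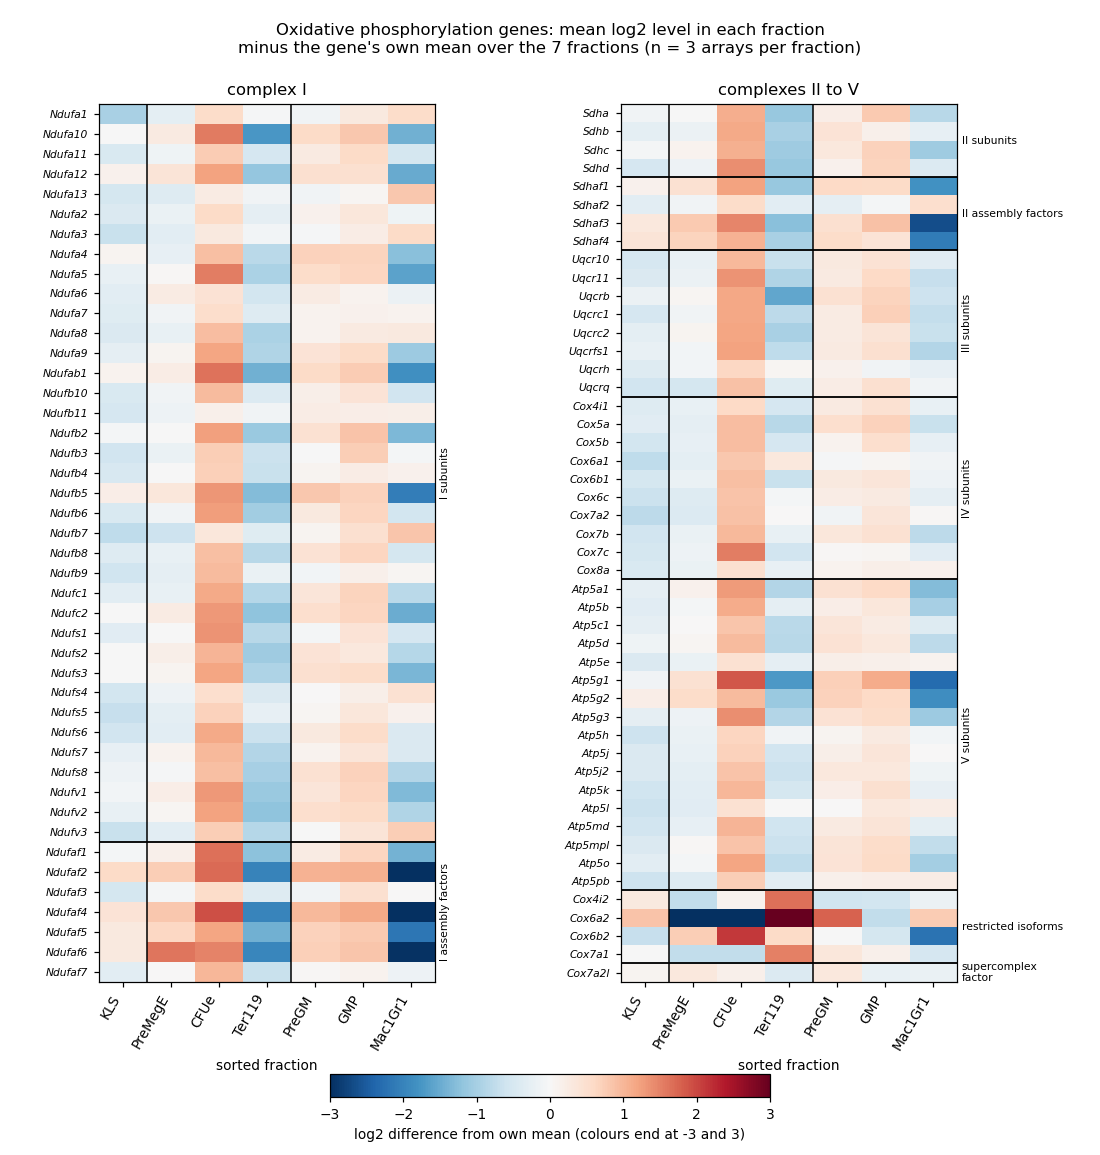
Mean log2 level of each of the 92 genes tested (lines, grouped by complex) in each sorted fraction (columns), minus the gene's own mean over the 7 fractions; n = 3 arrays per fraction, red above and blue below the gene's mean, colors ending at -3 and 3. CFUe is the highest column for 82 genes, while Cox4i2, Cox6a2 and Cox7a1 are highest in Ter119.

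The complexes moved in parallel. The median level of the 37 complex I subunits began at 4.24 ± 0.30 in KLS (SD of array medians, n = 3), then read 4.43 ± 0.17 for PreMegE, 5.59 ± 0.17 for CFUe and 3.72 ± 0.19 for Ter119. Along the myeloid path it was 4.68 ± 0.05 in PreGM, 5.09 ± 0.19 in GMP and 3.75 ± 0.16 in Mac1Gr1. Complex I was thus highest in CFUe and lowest in the mature fractions of both paths. Complex IV subunits ended higher relative to KLS: their median was 5.58 ± 0.35 in KLS, 6.95 ± 0.17 in CFUe, 5.81 ± 0.13 in Ter119 and 5.73 ± 0.12 in Mac1Gr1. The complex I assembly factors ended far lower, at 1.1 ± 0.19 in KLS, 2.34 ± 0.04 in CFUe, -0.47 ± 0.21 in Ter119 and -1.52 ± 0.34 in Mac1Gr1. The array medians of all 29533 probes changed little, with fraction means between -1.54 and -1.20.

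**Figure D2:**
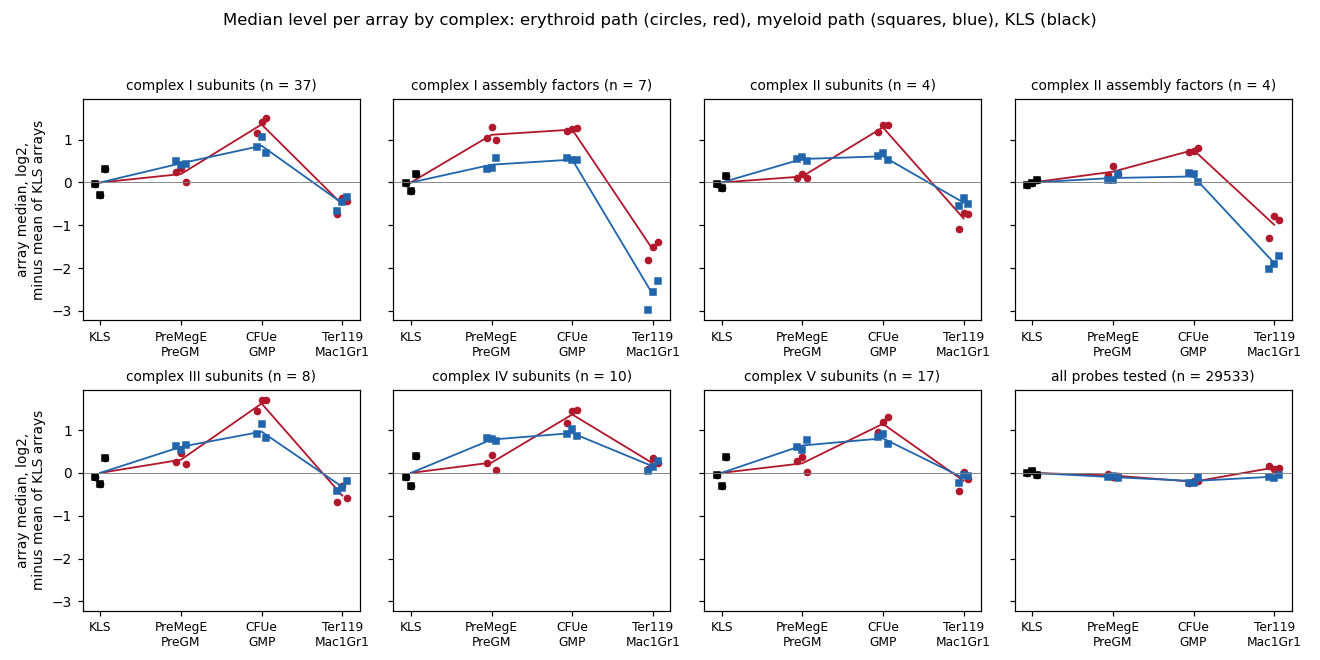
Median log2 level of each group of genes on each array, minus the mean of the KLS arrays, along the erythroid (red circles) and the myeloid path (blue squares); each point is 1 array and lines join fraction means. Medians of subunits rise to CFUe and fall at the last step, and those of the assembly factors fall furthest below KLS.

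The first step out of KLS differed between the paths. From KLS to PreMegE, 17 of 92 genes rose and 2 fell, against 13.4% and 12.8% of all probes, and the median change was 0.28, against 0.13 for all probes. The largest rise was that of Cox6b2, a testis-type isoform of a complex IV subunit (1.41, SE 0.19, adjusted p = 1.87e-05). Ndufaf6, a complex I assembly factor, followed (1.32, SE 0.13, adjusted p = 6.59e-07), and then Ndufa1, a small complex I subunit (0.67, SE 0.15, adjusted p = 0.00213). Cox6a2 fell by 4.04 and Cox7a1 by 0.74. The count of rises depended on single arrays, being 48 without KLS replicate 3 and 4 without KLS replicate 2, and was 2 with slides as a block. The median change with slides as a block was 0.26, against 0.09 for all probes, and KLS and PreMegE shared no slide. The count was 8 rises and 3 falls with quantile scaling, and 2 rises and 4 falls with spike-in scaling. The excess of the median over all probes turned with the scaling. It was 0.09 against 0.15 for all probes with quantile scaling, and 0.07 against 0.15 in the authors' normalized values.

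From KLS to PreGM, 77 of 92 genes rose and 0 fell, against 14.0% and 11.6% of all probes (limma; 0 fell at an unadjusted p under 0.05 as well). The changes were small, with a median of 0.61 against 0.06 for all probes, and 0 of the 77 reached 2-fold, against 2.11% of all probes. By complex, 33 of 37 complex I subunits, 3 of 4 of complex II, 8 of 8 of complex III, 9 of 10 of complex IV and 16 of 17 of complex V rose, and 5 of the 11 assembly factors. The largest rises were those of the complex IV subunits Cox7b (0.92, SE 0.17, adjusted p = 8.29e-04), Cox6a2 (0.89, SE 0.16, adjusted p = 6.79e-04) and Cox6c (0.87, SE 0.16, adjusted p = 7.90e-04). The count was 49 with quantile scaling, 43 without KLS replicate 2, 7 with slides as a block, and 0 rises and 1 fall with spike-in scaling, under which the median of all probes was -0.56. With slides as a block the median change stayed at 0.58, against 0.03 for all probes, although fewer genes were called. KLS and PreGM shared no slide.

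Set against each other directly, PreMegE was lower than PreGM for 24 genes and higher for 2, against 13.2% and 14.4% of all probes. Cox6a2 (-4.94), Cox7a1 (-1.09) and Ndufa4 (-0.94, SE 0.14, adjusted p = 9.32e-05) differed most, and the 2 higher in PreMegE were Ndufaf6 (0.90) and Cox6b2 (0.76). The count was 9 without PreMegE replicate 3, and with spike-in scaling 2 genes were lower and 2 higher.

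The erythroid rise came at the step from PreMegE to CFUe. Of 92 genes, 83 rose and 0 fell, against 27.3% and 23.6% of all probes (limma; 0 fell at an unadjusted p under 0.05 as well), and 49 rose at least 2-fold, against 9.96% of all probes. The median change was 1.07, against 0.12 for all probes. All 4 complex II, 8 complex III and 10 complex IV subunits rose, with medians of 1.21, 1.24 and 1.18, as did 35 of 37 complex I subunits (median 1.04) and 16 of 17 complex V subunits (median 1.13). The 7 core subunits of complex I, which carry its electron path, all rose. Of the 11 assembly factors 9 rose, with a median of 0.68. The 9 genes that were not called were Atp5g2, Ndufa6, Ndufb11, Ndufaf6, Sdhaf4, Cox7a2l, Cox4i2, Cox6a2 and Cox7a1.

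Cox7c, a small subunit of complex IV, rose most, from 3.86, 2.95 and 2.87 on the PreMegE arrays to 4.66, 5.04 and 5.08 on the CFUe arrays (3.24-fold, adjusted p = 1.77e-04). Sdhd, a membrane anchor of complex II, rose from 4.65, 4.72 and 4.62 to 6.14, 6.20 and 6.30 (2.93-fold, adjusted p = 5.62e-09). Atp5g3, one of the genes for the rotor ring of ATP synthase, rose from 6.03, 6.24 and 5.85 to 7.46, 7.67 and 7.61 (2.91-fold, adjusted p = 1.69e-07). In all 3 genes every CFUe array lay above every PreMegE array, as in 85 of the 92 genes and 30.8% of all probes. The 3 were picked as the largest called rises. Cox7c had the widest spread of them within PreMegE.

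Catalytic subunits and other subunits listed with them rose by similar amounts. Ndufs1, the largest iron-sulfur subunit of complex I, went from 3.57, 3.89 and 3.79 to 5.18, 5.10 and 5.06 (1.36, SE 0.11). Sdha, the flavoprotein of complex II, went from 1.11, 1.21 and 1.45 to 2.60, 2.25 and 2.19 (1.1, SE 0.15). Atp5b, the catalytic beta subunit of ATP synthase, went from 6.94, 7.0 and 6.87 to 8.0, 8.04 and 8.27 (1.17, SE 0.12). None of these arrays overlapped between the fractions, a separation whose share over all probes is given above. Ndufv1, Sdhb, Uqcrc1, Uqcrfs1 and Cox5a rose by 1.09, 1.32, 1.28, 1.30 and 1.18.

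Few arrays allow a comparison within a sex-linked pattern or a slide. Among arrays with Y-linked signal the median over the 92 genes was 1.18 (1 CFUe against 3 PreMegE arrays), and between the 1 array of each fraction on a shared slide it was 1.11, with 89 genes above 0. Quantile scaling gave 73 rises and 3 falls with a median of 0.61. Spike-in scaling gave 25 rises and 1 fall, as the median of all probes moved to -0.39. The median of the genes lay 0.51 above that of all probes with quantile scaling, against 0.95 in the scaling used here. Spike-in scaling shifts whole arrays and leaves that gap nearly as it is.

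The myeloid step from PreGM to GMP was small. Of 92 genes 12 rose and 2 fell, against 12.6% and 13.7% of all probes, and the median change was 0.15. Of the 4 complex II subunits 3 rose, Sdha (0.59, SE 0.15, adjusted p = 0.00761), Sdhc and Sdhd. The largest rises were those of Ndufb3 (0.75, SE 0.20, adjusted p = 0.00932) and the assembly factor Ndufaf3 (0.60, SE 0.16, adjusted p = 0.00909). The genes that fell were Cox6a2 and Cox7a2l, the latter from 4.13, 4.22 and 4.23 to 3.56, 3.71 and 3.67. The count of rises was 4 with slides as a block, and 7 without PreGM replicate 1, PreGM replicate 2, GMP replicate 1 or GMP replicate 2. With spike-in scaling 88 genes rose and 1 fell, and the median of all probes was 0.99.

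The change at the second step was tested between the paths as the erythroid minus the myeloid change. It was positive for 69 of 92 genes and negative for 0, against 18.2% and 16.0% of all probes (limma; 0 were negative at an unadjusted p under 0.05 as well). The median was 0.91, against 0.15 for all probes. Among widely used subunits it was largest for Cox7c (1.69, adjusted p = 0.00585), Sdhb (1.57, adjusted p = 3.45e-05) and Atp5g3 (1.44, adjusted p = 4.00e-05). The sign followed the scaling: with spike-in scaling 0 genes were positive and 29 negative, as the median of all probes moved to -1.39.

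CFUe and GMP could also be set side by side. In CFUe 64 of 92 genes were higher and 2 lower, against 32.2% and 21.7% of all probes, with a median of 0.55 against 0.22. Of these, 3 were at least 2-fold higher, against 12.1% of all probes: Cox6b2 (2.65), Cox7c (1.49) and Ndufaf1, a complex I assembly factor (1.01). The 2 lower in CFUe were Cox6a2 (-2.58) and Cox7a1 (-0.90). With quantile scaling 49 were higher and 4 lower, and with spike-in scaling 1 was higher and 77 lower, the median of all probes then being -1.15. The median of the genes lay 0.33 above that of all probes in the scaling used here and 0.41 with slides as a block. This gap shrank to 0.11 with quantile scaling and to 0.03 in the authors' normalized values.

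At the last erythroid step, from CFUe to Ter119, nearly all of the genes fell. Of 92 genes 87 fell and 3 rose, against 38.5% and 37.7% of all probes, and 68 fell at least 2-fold, against 28.0%. The median change was -1.70, against 0.05 for all probes. All subunits of complexes II, III, IV and V fell, with medians of -2.18, -1.97, -1.15 and -1.51, and 35 of 37 of complex I (median -1.77). All 11 assembly factors fell (median -2.63). Ndufa13 and Ndufb11 were not called. Falls were counted in 89 genes with spike-in scaling, 79 with quantile scaling and 83 in the authors' normalized values. On the slide shared by both fractions the median was -1.49. All 12 granulocytic markers, all 6 B cell markers and 5 of 6 macrophage markers rose at this step, and their part in these counts was not tested.

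At the last myeloid step, from GMP to Mac1Gr1, 66 of 92 genes fell and 6 rose, against 35.9% and 39.5% of all probes. The median change was -0.99, against 0.17 for all probes. Subunits fell in 24 of 37 cases for complex I, 4 of 4 for complex II, 7 of 8 for complex III, 7 of 10 for complex IV and 13 of 17 for complex V, with medians of -0.99, -1.35, -1.17, -0.53 and -0.71. Of the 11 assembly factors 9 fell (median -2.50). The 6 that rose were Cox6a2, Ndufa13, Ndufa3, Ndufs4, Ndufv3 and Sdhaf2, but with spike-in scaling 0 rose and 91 fell, as the median of all probes moved to -1.86. All 6 B cell markers and 5 of 6 macrophage markers rose at this step as well, with medians of 2.60 and 2.72, and their part in these counts was not tested.

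Among the genes tested, the complex I assembly factors Ndufaf4 and Ndufaf2 fell furthest at both last steps. Ndufaf4 lay at 3.36, 3.56 and 3.53 in CFUe and at -0.59, -0.40 and -0.30 in Ter119 (15.1-fold lower, adjusted p = 6.57e-13). In GMP it lay at 2.81, 2.72 and 2.53 and in Mac1Gr1 at -2.08, -1.69 and -1.52 (21.8-fold lower, adjusted p = 1.50e-13). Each mature fraction lay below every progenitor array, and Mac1Gr1 below Ter119. Every Ter119 array lay below every CFUe array for 38.7% of all probes. For Mac1Gr1 below GMP the share was 37.6%. Ndufaf2 fell 13.2-fold and 18.3-fold, and Ndufaf6 by 3.45 and 3.79 on the log2 scale. Sdhaf2, which inserts the flavin of complex II, went the other way in the myeloid path, from 1.80, 1.72 and 1.55 to 2.12, 2.32 and 2.29 (0.55, adjusted p = 5.25e-04), although it fell with spike-in scaling (-1.48).

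The 3 genes of the ATP synthase c ring encode the same mature protein and did not move alike. Atp5g1 lay at 4.32, 4.62 and 4.32 in PreMegE, at 5.67, 5.89 and 5.91 in CFUe and at 1.94, 2.50 and 2.22 in Ter119. Its fall was 12.2-fold there (adjusted p = 3.33e-11) and 10.8-fold from GMP to Mac1Gr1 (adjusted p = 5.99e-11). Atp5g2 lay at 6.14, 6.55 and 6.09 in PreMegE and at 6.50, 6.67 and 6.83 in CFUe, ranges that overlap, and its change was not called (0.41, SE 0.18, adjusted p = 0.0722). Atp5g1 and Atp5g3 rose at that step by 1.40 and 1.54. At the last erythroid step Atp5g2 and Atp5g3 fell by 2.08 and 2.26, and at the last myeloid step by 2.47 and 1.63. The differences between the 3 genes were not tested.

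The tissue-restricted isoforms of complex IV broke with the common pattern. Cox6a2, the isoform of heart and skeletal muscle, lay at -3.69, -3.72 and -4.26 in PreMegE, at -4.27, -3.90 and -3.93 in CFUe and at 3.11, 3.23 and 3.08 in Ter119, a 144-fold rise at the last step (7.17, SE 0.16, adjusted p = 1.33e-15). On the other path it lay at 1.05, 0.99 and 1.09 in PreGM, at -1.42, -1.37 and -1.56 in GMP and at -0.25, 0.09 and 0.27 in Mac1Gr1. Its KLS arrays, at 0.14, 0.01 and 0.31, overlapped only with Mac1Gr1. Its widely used partner Cox6a1 changed little at the last erythroid step, from 8.52, 8.81 and 8.77 to 7.98, 8.49 and 8.15 (-0.49, adjusted p = 0.0224).

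Cox7a1, the muscle isoform of another subunit, rose from -2.06, -1.54 and -2.10 in CFUe to 0.87, 0.15 and 0.04 in Ter119 (4.76-fold, adjusted p = 1.00e-07). Cox4i2, the lung isoform of the regulatory subunit, was above background on all arrays only in Ter119, at -2.60, -3.93 and -3.38. Its Ter119 mean lay 1.53 above that of CFUe (SE 0.55, limma, adjusted p = 0.0174). In CFUe 2 of its arrays were above background, and in Mac1Gr1 1. Only the Ter119 arrays brought this gene into the test, so that its higher level there is no independent result. Cox6b2 followed the common pattern, with 4.19, 4.43 and 4.47 in CFUe, 2.92, 2.98 and 2.54 in Ter119 and -0.28, -0.16 and 0.48 in Mac1Gr1. All 4 isoforms were at least 2-fold higher in Ter119 than in Mac1Gr1, as were 22.0% of all probes, with Cox4i2 under the limit just given. Cox6a2 was 3.10 and Cox6b2 2.80 above its Mac1Gr1 level there. Of the 12 granulocytic markers 2 were higher and 1 lower in Ter119 than in Mac1Gr1, with a median change of -0.05, and all 6 B cell markers were higher (median 1.81). Of the 6 macrophage markers 1 was higher and 5 lower (median -1.41). The part of these cells in the isoform levels was not tested.

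**Figure D3:**
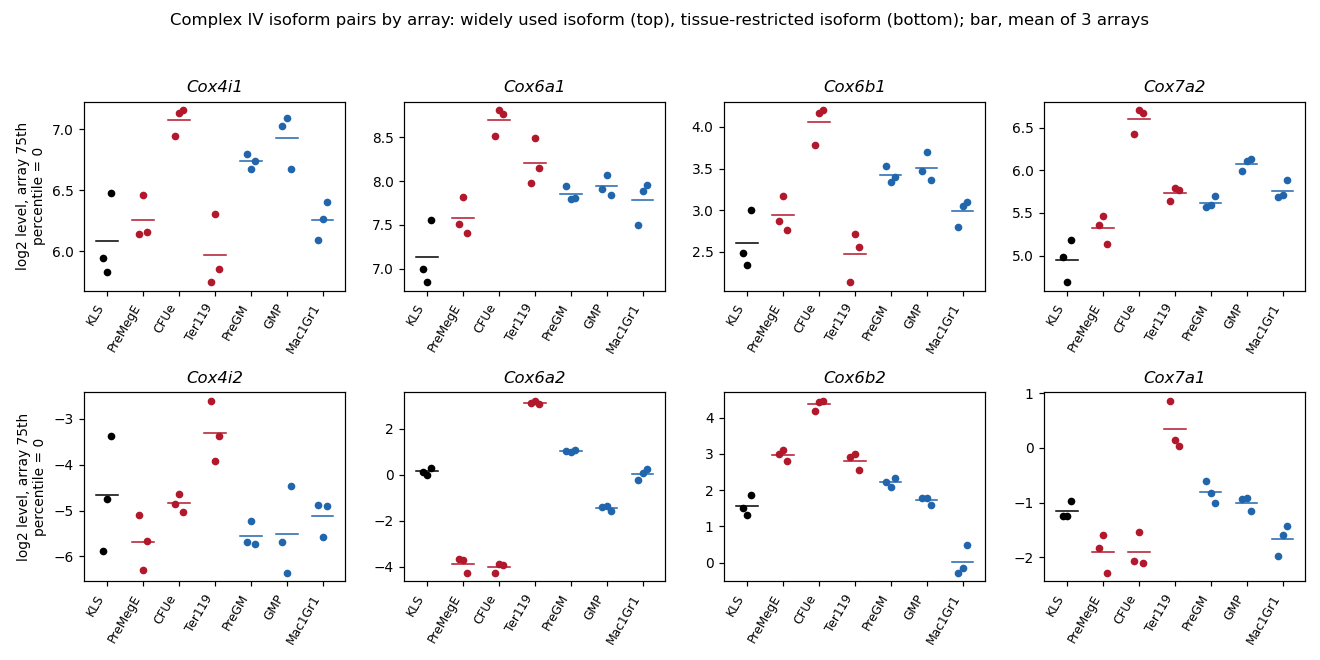
Log2 level (array 75th percentile = 0) of 4 widely used complex IV subunits (top) and their tissue-restricted isoforms (bottom) in the 7 fractions; each point is 1 array, bars are means of 3, and each panel has its own scale. The widely used isoforms are highest in CFUe, while Cox4i2, Cox6a2 and Cox7a1 are highest in Ter119. Cox4i2 entered the test only through its Ter119 arrays.

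The last steps were compared directly, as the erythroid minus the myeloid change. The difference was negative for 45 of 92 genes and positive for 3, against 28.9% and 26.0% of all probes, with a median of -0.56 against -0.07. It was negative for 19 of 37 complex I, 4 of 4 complex II, 5 of 8 complex III, 4 of 10 complex IV and 9 of 17 complex V subunits. This balance rested on the scaling, with 24 negative and 19 positive with quantile scaling, 21 and 20 in the authors' normalized values, and 2 and 9 with spike-in scaling. Single genes held their sign through the 10 settings that kept every array. On the negative side these included Ndufv3 (-1.94, range -2.07 to -1.12), Ndufa8 (-1.90, range -1.98 to -1.13) and Sdhb (-1.72, range -1.72 to -1.07). Cox6a2 (5.69, range 4.24 to 6.34) and Cox7a1 (2.92, range 2.20 to 3.57) held theirs on the positive side.

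Ndufa8, an accessory subunit of complex I, fell from 4.65, 4.90 and 4.93 in CFUe to 2.81, 2.95 and 3.11 in Ter119. In GMP it lay at 4.12, 4.25 and 4.18 and in Mac1Gr1 at 4.20, 4.30 and 4.14 (0.03, adjusted p = 0.822). The erythroid arrays were fully separate, as were those of 38.7% of all probes in this direction, and the myeloid arrays overlapped. Ndufa13, also known as a cell death regulator, lay at 6.43, 6.62 and 6.36 in GMP and at 7.06, 7.27 and 7.34 in Mac1Gr1, above every other fraction (0.75, SE 0.16, adjusted p = 4.36e-04), but lower than GMP with spike-in scaling (-1.28). Ndufv3, an accessory subunit near the NADH site, lay at 3.14, 3.30 and 3.43 in CFUe, at 1.68, 1.75 and 1.64 in Ter119 and at 3.16, 3.31 and 3.41 in Mac1Gr1. Its probes disagree: another probe fell from PreMegE to CFUe (-0.34) where the brightest rose (1.04). In CFUe against GMP the other probes were lower (-0.66 and -0.59) where the brightest was higher (0.34). The difference between the paths at the second step was -0.62 and -0.66 for them, against 0.65. It was the only gene of the 20 with several probes in which another probe was called in the opposite direction.

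Cox7a2l, the supercomplex factor, changed little over the fractions, its means spanning 0.73. It lay at 3.96, 3.97 and 3.94 in KLS, at 4.16, 4.24 and 4.15 in PreMegE and at 3.92, 4.02 and 4.12 in CFUe. Ter119 was lower, at 3.55, 3.41 and 3.44. Mac1Gr1 lay at 3.69, 3.63 and 3.69. The small difference between these fractions was called (-0.20), and 33.2% of all probes were called lower in Ter119. The KLS and CFUe arrays overlapped.

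**Figure D4:**
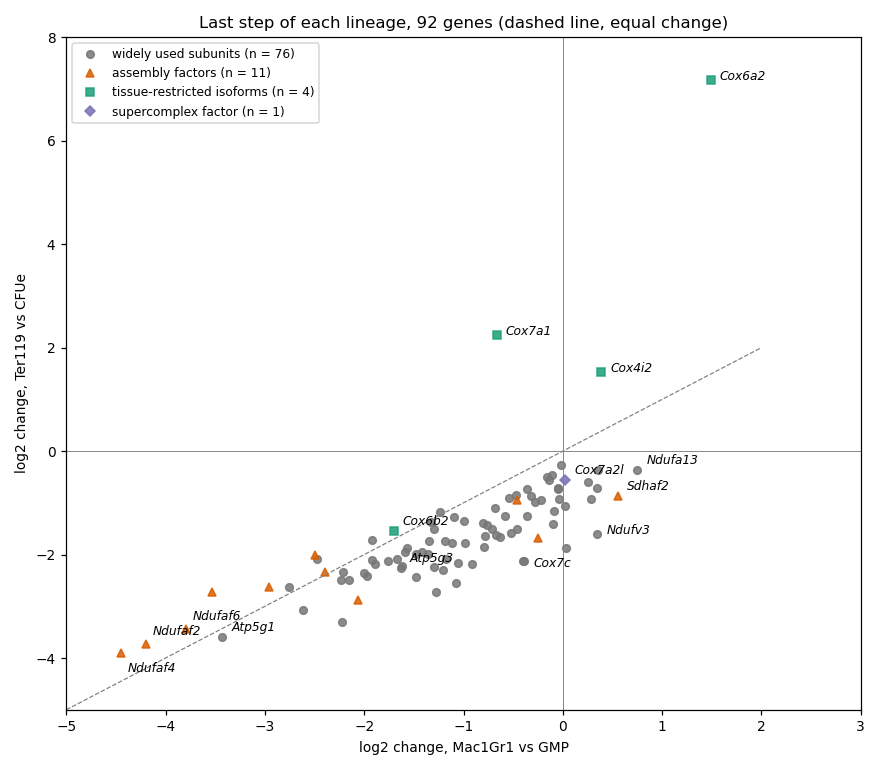
Log2 change from CFUe to Ter119 (vertical) against that from GMP to Mac1Gr1 (horizontal) for the 92 genes, with the dashed line marking equal change; symbols give the kind of gene. Ndufaf4, Ndufaf2 and Ndufaf6 lie at the lower left, Cox6a2 and Cox7a1 far above the line, and Ndufv3 and Sdhaf2 fall in the erythroid path while they rise in the myeloid path, where spike-in scaling turns both to a fall.

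Ter119 and Mac1Gr1, the 2 mature fractions, differed in both directions, though for a smaller share of these genes than of all probes. In Ter119 26 genes (28.3%) were lower and 21 (22.8%) higher, against 33.2% and 32.9% of all probes, with a median of -0.20. Of the 11 assembly factors 7 were higher in Ter119 and 3 lower, while 5 complex I subunits were higher and 13 lower. Lowest against Mac1Gr1 were Ndufv3 (-1.60), Ndufa8 (-1.26) and Ndufb7 (-1.19). The split was 15 lower and 40 higher with quantile scaling, 57 and 4 with spike-in scaling, and 19 lower without Ter119 replicate 1. No array of Ter119 shares its sex-linked signal with one of Mac1Gr1, so that the sex-linked pattern and the fraction cannot be told apart here.

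Atpif1, the inhibitor of ATP synthase, is no subunit but acts on complex V. It lay at 7.58, 7.83 and 7.50 in PreMegE, at 8.35, 8.54 and 8.69 in CFUe and at 7.60, 8.11 and 7.96 in Ter119. In GMP it lay at 7.32, 7.45 and 7.16 and in Mac1Gr1 at 5.08, 5.29 and 5.42. It thus stayed high in Ter119 (-0.64, limma, adjusted p = 0.00758) and fell in Mac1Gr1 (-2.04). The difference between the last steps was 1.41 (limma, adjusted p = 4.02e-04), between 1.22 and 2.06 over the settings that kept every array.

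Genes that work beside the complexes moved with them. All 12 genes tested of the tricarboxylic acid cycle rose from PreMegE to CFUe (median 1.08), against 27.3% of all probes. At the last steps 11 fell to Ter119 (median -2.12), against 38.5%, and 10 from GMP to Mac1Gr1 (median -1.35), against 35.9%. Idh3a, a subunit of isocitrate dehydrogenase, rose by 1.71 and then fell by 4.02, and fell by 4.69 in the myeloid path. Of 8 genes around cytochrome c, 7 rose to CFUe and 8 fell at each last step; Cycs, cytochrome c itself, rose by 1.61 and fell by 2.93 and 2.54. Of 29 assembly factors outside the symbol rule, 24 rose and 1 fell to CFUe (median 0.76), namely Ttc19 of complex III (-1.27), and 29 fell to Ter119 (median -1.69).

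Among 17 regulators of mitochondrial genes, 11 rose to CFUe (median 0.52), against 27.3% of all probes. To Ter119 14 fell and 1 rose (median -2.03), against 38.5% and 37.7%, and to Mac1Gr1 10 fell and 3 rose (median -2.24), against 35.9% and 39.5%. Tfam, which packs and transcribes mitochondrial DNA, rose by 0.75 and fell by 2.51 and 2.34. Lrpprc, which stabilizes mitochondrial mRNAs, rose by 1.06 and fell by 2.34 and 3.68. Nrf1, whose motif is marked in the promoters above, rose by 0.38 to CFUe, was not called to Ter119 (0.15, adjusted p = 0.34), and rose by 0.97 to Mac1Gr1. Gabpa rose by 0.60 and fell by 1.28 and 0.62. Ppargc1a, a coactivator, was the regulator that rose to Ter119 (1.44).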

How the data were processed

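Total RNA with spiked-in control RNAs was labelled with Cy3 and hybridized to 21 Agilent 1-color arrays on 9 slides, 3 per fraction. The deposited scanner files hold background-subtracted, processed intensity values per spot as written by Agilent's feature extraction, and the authors' deposited table gives log2 values already normalized between arrays (rank correlation with the scanner values 0.9998 to 1.000). Control spots and 80 to 283 outlier spots per array were left out and spots of a probe averaged, which gave 41174 probes (64.8% with a symbol). The log2 intensity minus the 75th percentile of its array was fitted with limma (version 3.58.1 in R 4.3.3) with 7 fraction means and 14 residual degrees of freedom, over the 29533 probes whose signal was well above background throughout some fraction, and p-values were adjusted after Benjamini-Hochberg. The median residual SD was 0.262, and the number of arrays limits the precision. In simulated data for CFUe against PreMegE with 200 of 29533 probes changed 2-fold, the fit recovered 54.5% of them and made 5 false calls. No other probe differed between fractions in the simulation, whereas 27.3% of probes rose and 23.6% fell at this step in the data. The adjusted p depends on how many probes change, so that the share recovered need not hold for these data. The study's methods name limma and SAM.

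The members and gene lists were chosen with earlier results of these data known. Values per array are given for the 3 largest called rises and falls per comparison among genes well above background on all 6 arrays. They are also given for isoforms, catalytic subunits and other subunits listed with them, Atpif1 and the listed genes. Ndufa8, Ndufa3 and Ndufs4 were added for their differences. Alternatives were quantile and spike-in scaling (7 of 10 spike-in sequences), normexp, no filter, the mean of all probes, slide and replicate blocks, the authors' table, a 2-fold minimum and leaving out each array. A block on sex-linked signal and a fit without Ter119 were chosen after seeing the data. Probes may read processed pseudogenes.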

Additional observations from a re-analysis of the deposited data

Results flagged for a closer look

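For 5 genes the last steps of the paths went in opposite directions and the difference itself passed the limma test over all probes. Cox7a1 rose from CFUe to Ter119 (2.25) but fell by 0.67 in the last myeloid step, and the paths thus differed by 2.92 (adjusted p = 1.03e-06). The other 4 fell in the erythroid and rose in the myeloid path. Ndufv3 changed by -1.60 and 0.35, a difference of -1.94 (adjusted p = 1.79e-07). Sdhaf2 changed by -0.87 and 0.55, a difference of -1.42 (adjusted p = 2.44e-06). Ndufs4, an accessory complex I subunit, changed by -0.92 and 0.29, a difference of -1.20 (adjusted p = 1.28e-05). Ndufa3, a small complex I subunit, changed by -0.36 and 0.36, a difference of -0.72 (adjusted p = 0.00477). With spike-in scaling 0 of the 92 genes rose and 91 fell from GMP to Mac1Gr1, so that the opposite direction was lost for all 4 of these genes.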

How the results depend on the processing

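Of 226 recounts under other settings 180 stayed on the same side and within 1.5 times, 35 moved and 11 turned direction; the cause was not tested. Spike-in scaling changed the most: rises from KLS were counted for 2 genes in PreMegE and 0 in PreGM, 25 rose to CFUe, 88 rose to GMP, 2 were lower in PreMegE than PreGM, 1 was higher in CFUe than GMP, 57 were lower in Ter119 than Mac1Gr1, and the path differences counted 0 positive at the second step and 2 negative at the last step. Quantile scaling gave 8 rises to PreMegE, 49 to PreGM, 15 lower in Ter119 than Mac1Gr1 and 24 at the last step of the paths. The authors' table gave 8, 49, 12 and 21 for these, and 39 higher in CFUe than GMP. Slides as a block gave 2 rises to PreMegE, 7 to PreGM and 4 to GMP, with 13 lower in PreMegE than PreGM and 13 lower in Ter119 than Mac1Gr1. Without the filter 9 rose to PreMegE. A 2-fold minimum left 2 rises to PreMegE, 49 to CFUe, 0 to PreGM and 0 to GMP, 2 lower in PreMegE than PreGM, 3 higher in CFUe than GMP, 3 lower in Ter119 than Mac1Gr1, and 32 and 22 for the path differences at the second and the last step.

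Leaving out 1 array gave 4 to 48 rises from KLS to PreMegE, 43 to 82 to PreGM, 83 to 86 to CFUe and 7 to 10 to GMP. It gave 84 to 89 falls to Ter119, 58 to 65 to Mac1Gr1, 9 to 27 lower in PreMegE than PreGM, 51 to 64 higher in CFUe than GMP, and 61 to 71 and 39 to 52 for the path differences. Ter119 against Mac1Gr1 gave 19 to 30 lower, with the balance turned without Ter119 replicate 1 (19) or Mac1Gr1 replicate 3 (21).

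Turns of sign in the gene values are counted only where the change was called under both settings. By this mark 22 gene values turned sign, 21 of them with spike-in scaling. In CFUe against GMP these were Ndufaf6 -0.71, Sdhd -0.63, Ndufaf2 -0.73, Cox7b -0.87, Cox6c -0.80, Cox7a2l -1.0, Sdhaf2 -0.76, Ndufv3 -1.03, Ndufa8 -0.73, Cox6a1 -0.62, Cox6b1 -0.83, Cox7a2 -0.85, Ndufv1 -0.73, Uqcrc1 -0.92 and Atp5b -0.60. At the second step they were Cox7a2l -1.14, Ndufv3 -0.88 and Cox8a -0.91, and from GMP to Mac1Gr1 Ndufa13 -1.28, Sdhaf2 -1.48 and Ndufv3 -1.68. With the mean of all its probes Ndufv3 was -0.30 in CFUe against GMP.

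The replicate numbers do not pair the arrays: same-numbered arrays correlated at -0.43 to 0.37 (median 0.0025) in their deviations, and 7 of 21 correlated best with their own number. The replicate block gave 17 rises to PreMegE, 84 to CFUe, 75 to PreGM and 12 to GMP, 87 falls to Ter119 and 66 to Mac1Gr1, 24 lower in PreMegE than PreGM, 63 higher in CFUe than GMP, 25 lower in Ter119 than Mac1Gr1, and 68 and 46 for the path differences.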
